A study of Mus musculus with 8 samples.

Results

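Lysosomal genes were followed in myotubes that were either re-fed or left without fresh medium. The set comprised 36 named hydrolases, activator proteins, membrane proteins and a sorting receptor, together with every gene whose symbol marks it as a subunit or accessory protein of the vacuolar proton pump (Atp6v0, Atp6v1 and Atp6ap). Of the named genes 34 had a probe set annotated with that symbol alone, and 21 pump genes were found, so that 55 genes on 104 probe sets were available among 12393 genes on the array. Ctso and Cd63 had no such probe set. Another 8 genes (Ctss, Ctsk, Gla, Manba, Cln3, Atp6v1b1, Atp6v1e2 and Atp6v0a4) were dimmer than the brightness limit for testing, a log2 signal of 6.61, which left 47 tested members among 8352 tested genes.

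The lysosome is the acidic compartment in which cells degrade proteins, glycans and lipids that arrive by endocytosis or autophagy. Cathepsins cut proteins, glycosidases trim sugar chains, and lipid hydrolases take apart membrane lipids with the help of small activator proteins. The vacuolar ATPase pumps protons into the lumen: its peripheral V1 sector hydrolyses ATP and its membrane sector V0 carries the protons. In muscle the autophagy-lysosome system is, beside the proteasome, a main route of protein breakdown.

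C2C12 cells, a mouse myoblast line, were differentiated to myotubes in DMEM with 2% horse serum, which was renewed every 48 h. From day 4 of differentiation medium renewal continued at 48 h intervals for 4 control samples (A to D) and stopped for 4 starved samples (E to H), which spent 4 days without it, and total RNA was taken from all on day 8 and hybridised to Affymetrix mouse expression arrays. The comparison asks which transcripts differ between fed myotubes and myotubes in spent medium, a setting the labels place under muscle atrophy. All samples come from 1 cell line, and since the labels leave unsaid whether replicates were grown as separate cultures, the p-values reflect no more than sample-to-sample spread, part of which could be technical.

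Values are log2 signals after quantile normalization, differences are starved minus control, and errors are the SD over 4 arrays for group means and the standard error of limma's linear model for differences. A gene was called when its Benjamini-Hochberg adjusted p in limma's test, over all 13575 tested probe sets, was below 0.05. Each gene is represented by its brightest tested probe set. RNA came from whole cultures, so fewer cells of a type and less RNA per cell cannot be told apart. Of the myotube markers 10 of 10 were bright enough to test, which by itself does not set myotubes apart from other cells. Their summed signals were 76647 to 80906 in control and 73285 to 74718 in starved arrays. Among them Des was called lower (-0.22) and Actn2 higher (0.58). Of 11 macrophage markers 7, among them Ptprc, Itgam and Lyz2, were too dim to test, and of 7 osteoclast markers on the array 5 were. The tested macrophage markers Csf1r, Cd14, Adgre1 and Cd68 had control means of 8.41, 7.94, 7.28 and 6.82, and 0 of 4 passed. All starved arrays of Adgre1 lay above all controls, and the groups overlapped for the others. The tested osteoclast markers Mmp9 and Tnfrsf11a had control means of 7.26 and 7.58, and neither passed. The summed signals were 1176 to 1353 in control and 1195 to 1496 in starved arrays for macrophage markers, and 497 to 623 and 541 to 752 for osteoclast markers. All 8 fibroblast markers were tested, of which Dcn was called higher and Col1a1 and Pdgfrb lower, with sums of 10971 to 12726 in control and 9846 to 11509 in starved arrays. Whether cells of these other types were present, and what part they would have in the lysosomal values, was not tested. Control B stood apart: its 3' Gapdh control signal exceeded the 5' one by 1.40 on the log2 scale, a difference of -0.23 to -0.039 elsewhere (7 arrays).

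Few lysosomal genes passed the test. Gm2a, the activator protein of GM2 ganglioside degradation, fell by 1.10 on the log2 scale, and 5 further genes fell by 0.35 to 0.42, namely the protease gene Ctsd, the hexosaminidase gene Hexa, the ceramidase gene Asah1 and the pump genes Atp6v1e1 and Atp6v1f. Ctsc, a dipeptidyl peptidase, was the single member that rose. In all, 1 member was called higher, 6 lower, and 40 of 47 did not pass. These 7 calls are 14.9% of the tested members, where 11.2% of all tested genes were called, 4.25% as higher and 6.93% as lower. The arrays of the 2 groups did not overlap for 10 members (21.3%), 2 of them higher and 8 lower in starved arrays, against 18.5% of all tested genes, of which 8.2% were higher and 10.3% lower. The median difference of the members was -0.034, with 21 above and 26 below 0, beside a median of 0.014 over all tested genes.

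**Figure D1:**
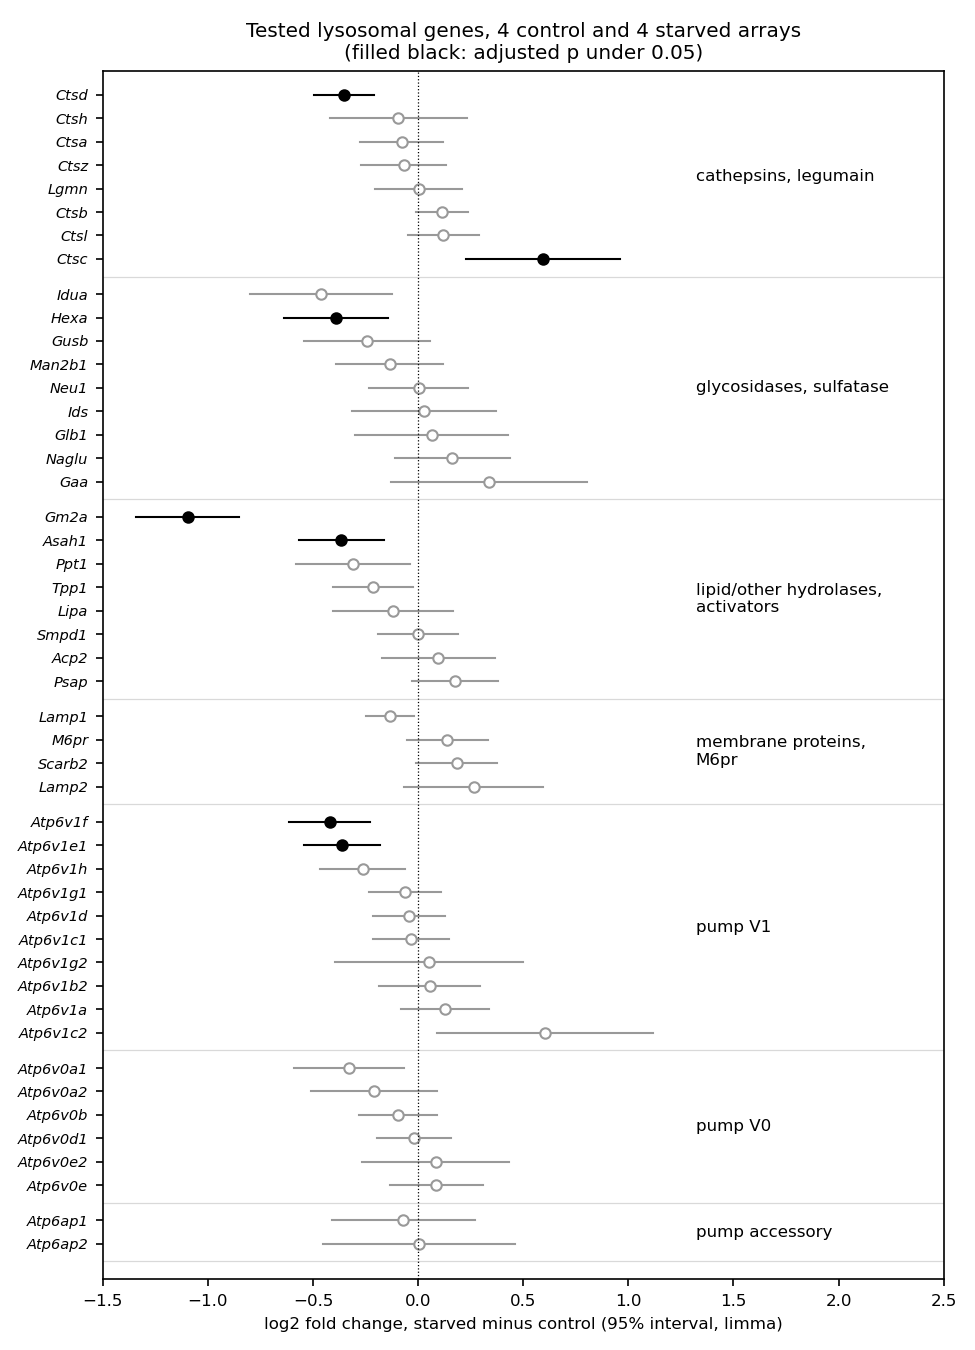
Log2 fold change of the 47 tested lysosomal genes, starved minus control, with the 95% interval from limma (n = 4 arrays per group), grouped by class. Filled black symbols mark the 7 called genes, of which Gm2a lies farthest from 0 at -1.10 and Ctsc is the only one above 0.

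How tightly the small differences were bounded can be read from their 95% intervals. The interval lay wholly within 0.5 on the log2 scale of no difference for 33 of the 47 members (70.2%). Ctsd, Lamp1, Ctsb and Ctsl were among these members. Over all tested genes the share was 49.3%. The median half-width was 0.24, compared with 0.31 over all tested genes. A difference beyond 0.5 was measured for 3 members (6.38%), Gm2a, Ctsc and Atp6v1c2, and for 10.6% of all tested genes. These bounds hold after quantile normalization, and in unscaled values the median of all tested genes was -0.34. The class medians ran from -0.17 to 0.16: -0.034 for the 8 genes of cathepsins and legumain, 0.0020 for 9 glycosidase and sulfatase genes, -0.17 for 8 lipid hydrolases, other hydrolases and activators, 0.16 for 4 genes of membrane proteins and the sorting receptor, and -0.038 for 18 genes of the proton pump. The array values behind these medians, each gene taken relative to its own mean, overlapped between the groups in every class. In starved arrays the median of the lipid hydrolase class ran from -0.13 to -0.0098, and in control arrays from -0.070 in A to 0.16 in D. For the membrane class it ran from -0.0061 to 0.082 in starved arrays and from -0.15 in control D to 0.013 in control B. No test of a difference between classes was made.

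**Figure D2:**
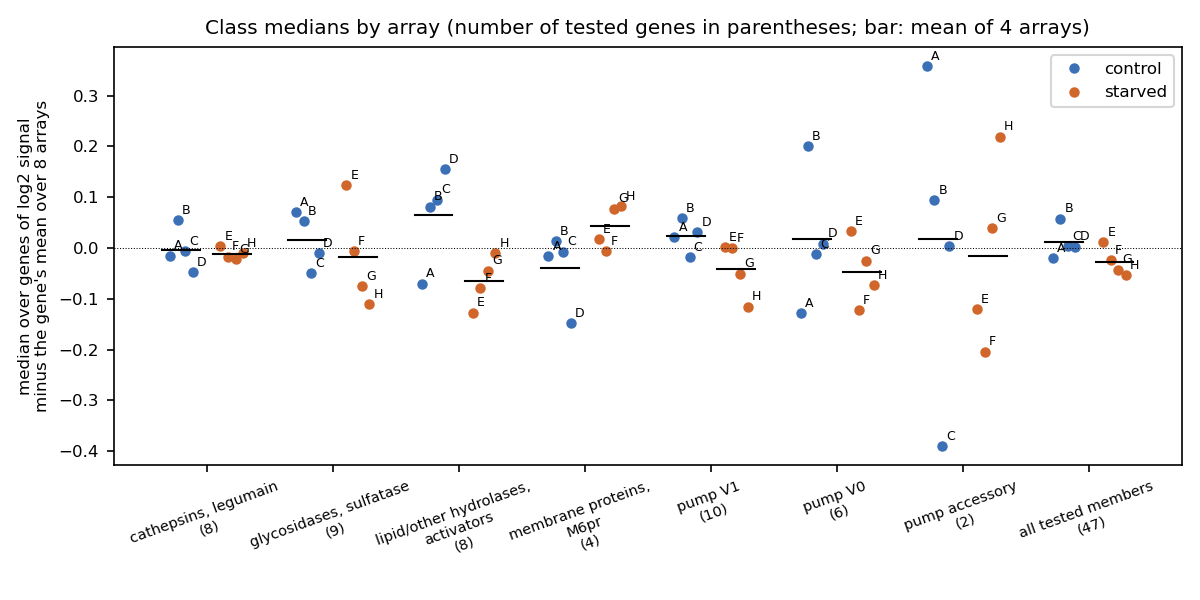
Median over the tested genes of each class of the log2 signal minus that gene's mean over the 8 arrays, for each control (A to D) and starved (E to H) array, with the group mean as a bar. Control and starved arrays overlap in all classes, and the pump accessory class, with 2 genes, spreads most, from -0.39 in control C to 0.36 in control A.

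Many lysosomal genes share a promoter element, called CLEAR, that the transcription factor TFEB and its relatives bind, and its core letters were looked up in the RefSeq windows that span 250 bases before to 50 bases after each gene's start (GRCm38.p6). A window was found for 46 of the 55 genes. The letters TCACGTGA, which read the same on both strands, occurred in 7 of these 46 genes (15.2%), against 1.12% of 27025 genes with a window. The shorter CACGTG, which lies inside TCACGTGA, occurred in 14 (30.4%), against 8.09%, and the full 10-base CLEAR palindrome, which holds both, in 1, Cln3, against 0.37%. These matches describe the sequence and are not binding data. The sites are shown as the 8-base matches found in the windows of these 7 genes, with TCACGTGA in capitals and 10 bases on either side, 5' to 3' on the gene's strand.
Ctsd, 99 bases before the start, chr7:142387909-142387936, minus strand: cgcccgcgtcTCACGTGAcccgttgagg
Ctsa, 13 bases before the start, chr2:164833750-164833777, plus strand: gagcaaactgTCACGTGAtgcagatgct
Ctsa, from base 5 after the start, chr2:164833767-164833794, plus strand: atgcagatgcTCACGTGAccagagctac
Cln3, 122 bases before the start, chr7:126583341-126583368, minus strand: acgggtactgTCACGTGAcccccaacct
Gla, 228 bases before the start, chrX:134601216-134601243, minus strand: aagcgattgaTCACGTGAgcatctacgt
Gla, 195 bases before the start, chrX:134601183-134601210, minus strand: gagatctcggTCACGTGAgcaactctcg
Atp6v1a, 132 bases before the start, chr16:44139374-44139401, minus strand: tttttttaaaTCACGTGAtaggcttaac
Atp6v0d1, 4 bases before the start, chr8:105566051-105566078, minus strand: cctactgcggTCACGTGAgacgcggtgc
Atp6v0e, from base 3 after the start, chr17:26676388-26676415, plus strand: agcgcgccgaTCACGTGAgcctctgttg

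Of these genes 5 were tested, namely Ctsd, Ctsa, Atp6v1a, Atp6v0d1 and Atp6v0e, and Ctsd was the one called. Among the 12 tested members with CACGTG in the window the median difference was 0.033, with 0 called higher and 1 lower. Among the 26 tested members with a window that lacks it the median was -0.056, with 1 called higher and 4 lower. Over all tested genes 4.25% were called higher and 6.93% lower. Asah1, also called lower, had no window and is in neither set. A difference between the 2 sets was not tested. The factor gene Tfeb itself was at -0.0095 ± 0.22 (adjusted p = 0.987), and its relative Mitf at 0.089 ± 0.14 (adjusted p = 0.752). Of its other relatives, Tfe3 had no probe set annotated with that symbol alone and Tfec was too dim to test. These are transcript signals, and the activity of the factors was not measured. The 250 bases before the start are printed for 2 of the genes that fell. Ctsd (chr7:142387828-142388077, minus strand) holds TCACGTGA and 1 further CACGTG, both in capitals, and Gm2a (chr11:55097735-55097984, plus strand), the gene with the largest change, holds neither.
Ctsd: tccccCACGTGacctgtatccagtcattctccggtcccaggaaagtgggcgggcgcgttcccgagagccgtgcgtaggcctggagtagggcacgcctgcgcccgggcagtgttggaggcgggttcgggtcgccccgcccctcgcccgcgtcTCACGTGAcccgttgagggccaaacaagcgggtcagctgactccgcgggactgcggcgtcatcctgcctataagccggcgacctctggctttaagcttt
Gm2a: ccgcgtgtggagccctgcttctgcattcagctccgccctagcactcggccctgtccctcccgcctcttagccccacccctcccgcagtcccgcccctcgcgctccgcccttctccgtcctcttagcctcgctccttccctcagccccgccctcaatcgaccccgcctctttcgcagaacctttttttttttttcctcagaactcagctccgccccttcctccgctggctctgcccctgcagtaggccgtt

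The lipid-degrading enzymes and their activators held the largest change. Gm2a encodes the protein that lifts GM2 ganglioside out of the membrane and presents it to hexosaminidase A. Its log2 signal in controls A to D was 8.69, 8.84, 8.90 and 8.86, and the starved arrays E to H read 7.87, 7.74, 7.55 and 7.76. All starved arrays lay below all controls, with a gap wider than the spread within either group. The means were 8.82 ± 0.09 and 7.73 ± 0.13, and Gm2a fell by 1.10 ± 0.11 on the log2 scale, or by 53.2% (limma, adjusted p = 8.74e-05). It ranked 98 from the lowest among the 8352 tested genes. The other probe set of Gm2a stood at -1.04 ± 0.33 but did not pass (adjusted p = 0.0702): its controls spread from 6.76 in B to 7.93 in D and overlapped with starved F at 7.21.

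Asah1, acid ceramidase, which splits ceramide into sphingosine and a fatty acid, had signals of 9.81, 9.97, 10.00 and 9.89 in controls and 9.55, 9.70, 9.43 and 9.53 in starved arrays. The groups did not overlap, with starved F and control A nearest to each other. The gene fell by 0.36 ± 0.09 (adjusted p = 0.0257), a call lost when control C, control D, starved E or starved G was left out (adjusted p from 0.0587 to 0.0842). Ppt1, which removes palmitate from proteins, stood at -0.31 ± 0.12 (adjusted p = 0.153) and at -0.56 ± 0.16 on its other probe set (adjusted p = 0.0515), where the groups did not overlap. Ppt1 was called lower with the mean of both probe sets (adjusted p = 0.0466), without control A (adjusted p = 0.0457) and in unscaled values (adjusted p = 0.0437). Tpp1, a tripeptidyl peptidase, was at -0.22 ± 0.09 (adjusted p = 0.157). The remaining members of the class lay between -0.12 and 0.17 and did not pass: Lipa, the acid lipase of cholesteryl esters, Smpd1, acid sphingomyelinase, the phosphatase gene Acp2, and Psap, the precursor of the saposins.

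Among cathepsins and legumain 1 of 8 rose, 1 fell and 6 did not pass. The calls are 25% of these 8 genes, beside 11.2% of all tested genes (4.25% higher and 6.93% lower). Ctsd, the main aspartic protease of the lysosome, had control signals of 12.91, 12.72, 12.96 and 12.90 (A to D), and the starved arrays E to H read 12.55, 12.61, 12.46 and 12.45. Every starved array was below every control, with starved F and control B nearest to each other. Ctsd fell by 0.35 ± 0.07, or by 21.8% (adjusted p = 0.00497). The call was lost when arrays were centred on their median (adjusted p = 0.181) or 75th percentile (adjusted p = 0.215). Ctsc, dipeptidyl peptidase I, which activates granule proteases, had signals of 8.09, 7.83, 7.60 and 7.85 in controls and 8.29, 8.08, 8.72 and 8.65 in starved arrays. Starved F was just below control A, and the other starved arrays were above all controls. Ctsc rose by 0.59 ± 0.17, or by 51.0% (adjusted p = 0.0437). This call was lost when any 1 of controls B, C and D or starved E, G and H was left out (adjusted p from 0.0613 to 0.121), with unscaled values, with median centring, without a brightness filter and without an intensity trend.

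Ctsl, cathepsin L, a cysteine protease known to be induced in wasting muscle, had signals from 12.00 to 12.15 in control and from 12.08 to 12.39 in starved arrays, a difference of 0.12 ± 0.08 with a 95% interval from -0.049 to 0.29 (adjusted p = 0.384). Ctsb, cathepsin B, read 12.24, 12.32, 12.28 and 12.31 in controls and 12.34, 12.33, 12.46 and 12.47 in starved arrays. All starved arrays were higher, but by a small margin, 0.11 ± 0.06 (interval -0.010 to 0.24, adjusted p = 0.252). The 3 dimmer probe sets of Ctsb were also above 0, from 0.043 to 0.41, and none passed. Ctsh, Ctsa and Ctsz, an aminopeptidase and 2 carboxypeptidases, were at -0.094, -0.078 and -0.070, and the asparaginyl protease gene Lgmn at 0.0015, with adjusted p from 0.657 to 0.995. Ctss and Ctsk, the cathepsins of immune cells and osteoclasts, were too dim to test.

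**Figure D3:**
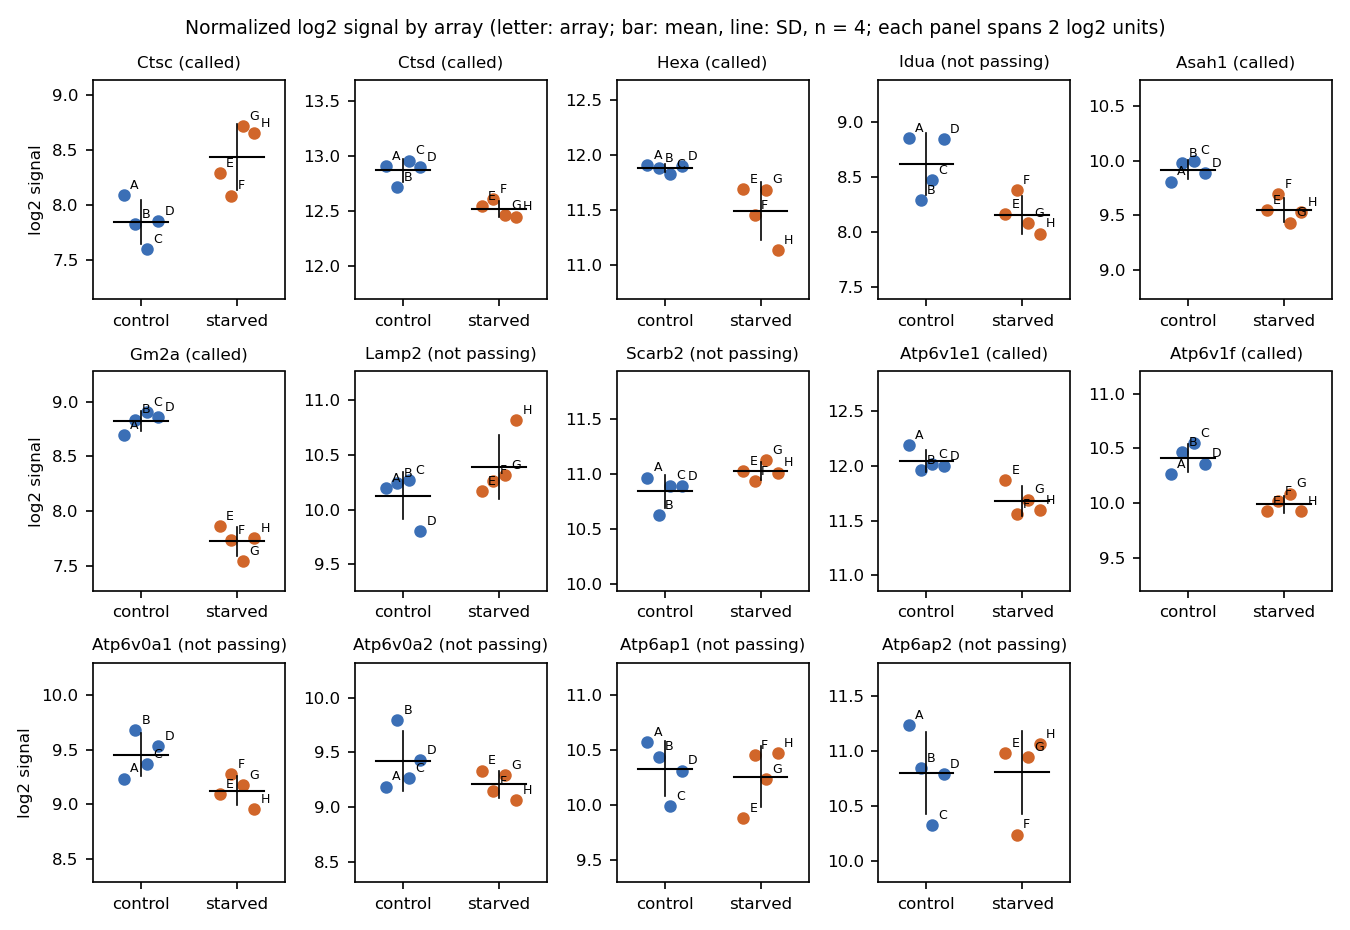
Normalized log2 signal of 14 members in each control (A to D) and starved (E to H) array, with the group mean as a horizontal bar and the SD as a vertical line (n = 4). The panels hold the 7 called genes and the largest differences in classes with fewer than 2 calls, and Gm2a shows the widest gap between its groups, 8.82 against 7.73.

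Among glycosidases and the sulfatase Ids 1 of 9 tested genes fell, 0 rose and 8 did not pass. The call is 11.1% of this class, where 11.2% of all tested genes were called. The gene Hexa encodes the alpha subunit of hexosaminidase A, the enzyme that Gm2a serves. Its signals were 11.91, 11.88, 11.83 and 11.90 in controls and 11.69, 11.46, 11.69 and 11.13 in starved arrays. The controls lay close together, the starved arrays were all lower, and starved H was the lowest. Hexa fell by 0.39 ± 0.11, or by 23.7% (adjusted p = 0.0489), next to the threshold. Its call was lost when any 1 of controls A to D, starved F or starved H was left out (adjusted p from 0.0515 to 0.112), with median or 75th percentile centring, without a brightness filter and without an intensity trend. Without starved H the difference was -0.27.

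Idua, which cleaves iduronic acid from heparan and dermatan sulfate, read 8.86, 8.29, 8.47 and 8.85 in controls and 8.16, 8.38, 8.08 and 7.98 in starved arrays. Starved F lay above control B. The difference was -0.46 ± 0.15 (adjusted p = 0.0863). Idua was called lower without control B (-0.57, adjusted p = 0.0287) and in unscaled values. The other probe set of Idua stood at 0.12 ± 0.20. The gene Gaa, acid alpha-glucosidase, which breaks down glycogen in the lysosome and is deficient in Pompe disease, was at 0.34 ± 0.21 (adjusted p = 0.371). Its controls lay between 9.68 and 9.83, whereas starved E to H read 10.64, 10.37, 9.86 and 9.45, so that the starved arrays spread on both sides of the controls. The others lay between -0.24 and 0.16 and did not pass: Gusb, a glucuronidase, the mannosidase gene Man2b1, the sialidase gene Neu1, Ids, the galactosidase gene Glb1, and Naglu, an enzyme of heparan sulfate breakdown. Gla and Manba were too dim to test.

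Of the membrane proteins and the sorting receptor 0 of 4 passed, where 11.2% of all tested genes were called. Lamp1 and Lamp2 are the most abundant glycoproteins of the lysosomal membrane. Lamp1 read 12.71, 12.68, 12.64 and 12.78 in controls and 12.57, 12.62, 12.54 and 12.53 in starved arrays, so all starved arrays were lower. The difference was small, -0.13 ± 0.05 (interval -0.25 to -0.020, adjusted p = 0.139). Lamp2 read 10.20, 10.24, 10.27 and 9.80 in controls and 10.17, 10.26, 10.32 and 10.81 in starved arrays. Control D was the lowest and starved H the highest, and the other 6 arrays lay between 10.17 and 10.32. The difference was 0.26 ± 0.15 (adjusted p = 0.324), or 0.12 without starved H and 0.16 without control D, and the 4 tested probe sets of Lamp2 ran from -0.097 to 0.28. Scarb2, the receptor that carries glucocerebrosidase to the lysosome, read 10.97, 10.63, 10.89 and 10.89 in controls and 11.03, 10.93, 11.13 and 11.01 in starved arrays. Starved F fell below control A, and the difference was 0.18 ± 0.09 (adjusted p = 0.237). M6pr, the cation-dependent mannose 6-phosphate receptor that sorts new hydrolases, was at 0.14 ± 0.09 (adjusted p = 0.372). In unscaled values Lamp2 and Scarb2 were below 0 (-0.13 and -0.19), where the median of all tested genes was -0.34.

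In the proton pump 2 of 18 tested genes fell and 0 rose, both in the V1 sector (2 of 10). The calls are 11.1% of the pump genes and 20% of the V1 genes, beside 11.2% of all tested genes (6.93% lower). Atp6v1f, a subunit of the central rotor, read 10.27, 10.47, 10.55 and 10.36 in controls and 9.93, 10.02, 10.09 and 9.93 in starved arrays. All starved arrays were lower. The gene fell by 0.42 ± 0.09, or by 25.3% (adjusted p = 0.0105), and it was called under each of the 19 other ways of processing that were tried. Atp6v1e1, a subunit of the peripheral stalk, read 12.19, 11.96, 12.02 and 12.00 in controls and 11.87, 11.56, 11.69 and 11.59 in starved arrays, again without overlap. It fell by 0.36 ± 0.08 (adjusted p = 0.0154), a call lost with median centring (adjusted p = 0.0623), with 75th percentile centring (adjusted p = 0.0722) and without an intensity trend (adjusted p = 0.0659). A much dimmer probe set of Atp6v1e1 stood at 1.02 ± 0.35 (adjusted p = 0.0927), with controls of 6.46, 6.95, 8.31 and 6.63 and starved arrays of 8.19, 8.03, 8.42 and 7.81, where control C lay among the starved arrays. The mean of both probe sets gave 0.33 (adjusted p = 0.278), so the direction for Atp6v1e1 rests on its brightest probe set.

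The other V1 subunits did not pass. Atp6v1h, the regulatory subunit, was at -0.26 ± 0.09 with no overlap between the groups (adjusted p = 0.0996). Atp6v1c2, a tissue-restricted isoform, read 6.71, 6.14, 6.70 and 6.57 in controls and 7.07, 7.03, 7.70 and 6.73 in starved arrays. All starved arrays were higher, at signals near the brightness limit, and the difference was 0.60 ± 0.23 (adjusted p = 0.143). Its widely expressed counterpart Atp6v1c1 was at -0.034 ± 0.082. The catalytic subunit gene Atp6v1a was at 0.13 ± 0.09 (interval -0.080 to 0.33) and its partner Atp6v1b2 at 0.055 ± 0.11 (interval -0.18 to 0.29). Atp6v1d, Atp6v1g1 and Atp6v1g2 lay between -0.063 and 0.051.

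In the V0 sector 0 of 6 genes passed, where 11.2% of all tested genes were called. Atp6v0a1, a large membrane subunit, read 9.23, 9.68, 9.37 and 9.53 in controls and 9.09, 9.27, 9.17 and 8.96 in starved arrays. Starved F lay just above control A, and the difference was -0.33 ± 0.12 (adjusted p = 0.113). Its isoform Atp6v0a2 read 9.19, 9.80, 9.27 and 9.43 in controls and 9.33, 9.15, 9.29 and 9.07 in starved arrays. Control B was the highest of the 8, and the difference was -0.21 ± 0.14 (adjusted p = 0.388), or -0.085 without control B, the array with the deviating Gapdh ratio. Atp6v0b, Atp6v0d1, Atp6v0e and Atp6v0e2, the smaller V0 subunits, lay between -0.095 and 0.086. The accessory proteins were measured with more spread. Atp6ap1 read 10.58, 10.44, 9.99 and 10.31 in controls and 9.88, 10.45, 10.23 and 10.48 in starved arrays, a difference of -0.071 ± 0.15. Atp6ap2, the (pro)renin receptor, read 11.24, 10.84, 10.33 and 10.79 in controls and 10.98, 10.24, 10.94 and 11.06 in starved arrays. Its groups overlapped fully, with a difference of 0.0041 ± 0.21 (interval -0.45 to 0.46).

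Several genes were measured by more than 1 probe set, and these did not always run alike. For 26 members more than 1 probe set was tested, and these lay on 1 side of 0 in 13 members and on both sides in 13. None of the 39 tested probe sets that did not represent their gene passed. These are the dimmer probe sets of their genes, and the share called among such probe sets of all genes was not counted. The widest distance between probe sets of a gene was that of Atp6v1e1, 1.39, followed by Idua with 0.59, while the probe sets of M6pr and of Atp6v1a were 0.017 apart.

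**Figure D4:**
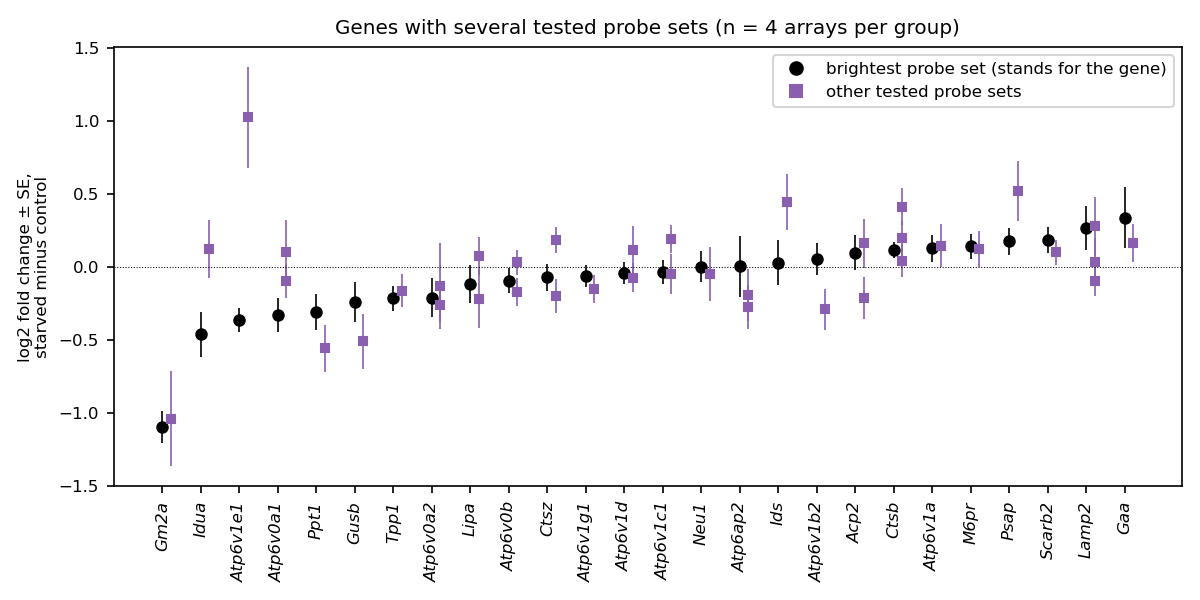
Log2 fold change with its standard error for each tested probe set of the 26 members that have several (n = 4 arrays per group), black circles for the brightest and violet squares for the others. Both probe sets of Gm2a lie at -1.10 and -1.04, whereas those of Atp6v1e1 lie at -0.36 and 1.02.

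Other genes of the same pathway were counted in the same way. Of 51 tested genes for lysosome biogenesis, enzyme sorting, other hydrolases and other membrane or luminal proteins, 4 were called higher, 5 lower and 42 did not pass, with a median of -0.062. These 9 calls are 17.6% of the list, beside 11.2% of all tested genes (4.25% higher and 6.93% lower). The cation-independent mannose 6-phosphate receptor gene Igf2r read 9.55, 9.58, 9.42 and 9.35 in controls and 9.93, 10.02, 9.82 and 9.91 in starved arrays. All starved arrays were higher, and Igf2r rose by 0.45 ± 0.09 (adjusted p = 0.00863). Cln8, an endoplasmic reticulum protein that exports lysosomal enzymes, rose by 0.71 ± 0.13 (adjusted p = 0.00451), and the carboxypeptidase gene Scpep1 by 0.45 ± 0.10 (adjusted p = 0.0121). The calls of these 3 genes were lost in unscaled values alone. Mcoln1, the calcium channel of the lysosomal membrane, rose by 0.32 ± 0.09 (adjusted p = 0.0370), a call kept in 7 of 19 other ways of processing. Leaving out any 1 of controls A to D or starved E to G ended it, and its difference was -0.073 in unscaled values.

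Among those that fell, Npc2, which hands cholesterol out of the lysosome, read 12.12, 12.33, 11.97 and 12.07 in controls and 11.85, 11.76, 11.76 and 11.55 in starved arrays, with no overlap. It fell by 0.39 ± 0.09 (adjusted p = 0.0162). Fuca1, a fucosidase, fell by 0.41 ± 0.09 (adjusted p = 0.0152) and stood at -0.16 when its probe sets were averaged (adjusted p = 0.415). Pcyox1, an oxidase of prenylated cysteine, fell by 0.45 ± 0.11, and Cst3, an inhibitor of cysteine cathepsins, fell by 0.32 ± 0.08 (adjusted p = 0.0226 and 0.0240). The Pcyox1 call was lost without control A, C or D or starved E or G, and that of Cst3 without control A, control C or starved F. Both Npc2 and Cst3 lost their calls with median or 75th percentile centring and without an intensity trend. The phospholipase gene Pla2g15 fell by 1.55 ± 0.39 (adjusted p = 0.0254), but starved G, at 7.14, lay above control C, at 7.04. Its call was lost without starved E or H, and when its probe sets were averaged (-0.74, adjusted p = 0.0702). Without control A, B or D a different probe set stood for Pla2g15, because the brightest was chosen anew in each run. The differences were then 0.039, -0.061 and 0.20, none of which passed, and they do not describe the probe set above.

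The scaling between arrays changed the counts. The starved arrays were dimmer before scaling, with trimmed mean intensities of 242 to 365 against 316 to 453 in controls. In unscaled values 10 members were called lower and 0 higher (21.3%), where 12.8% of all tested genes were called, 1027 lower and 45 higher. These 10 included Atp6v0a1, Idua, Ppt1 and Tpp1, which did not pass after quantile normalization. Median centring left 3 lower and 0 higher (6.38%), where 9.24% of all tested genes were called. With 75th percentile centring 3 were lower and 1 higher (8.51%), where 9.60% of all tested genes were called. Gm2a, Asah1 and Atp6v1f were called lower under each of the 4 scalings. Without control B 0 members were called higher and 6 lower, with Idua in place of Hexa and without Ctsc. In that run 10.7% of all tested genes were called.

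**Figure D5:**
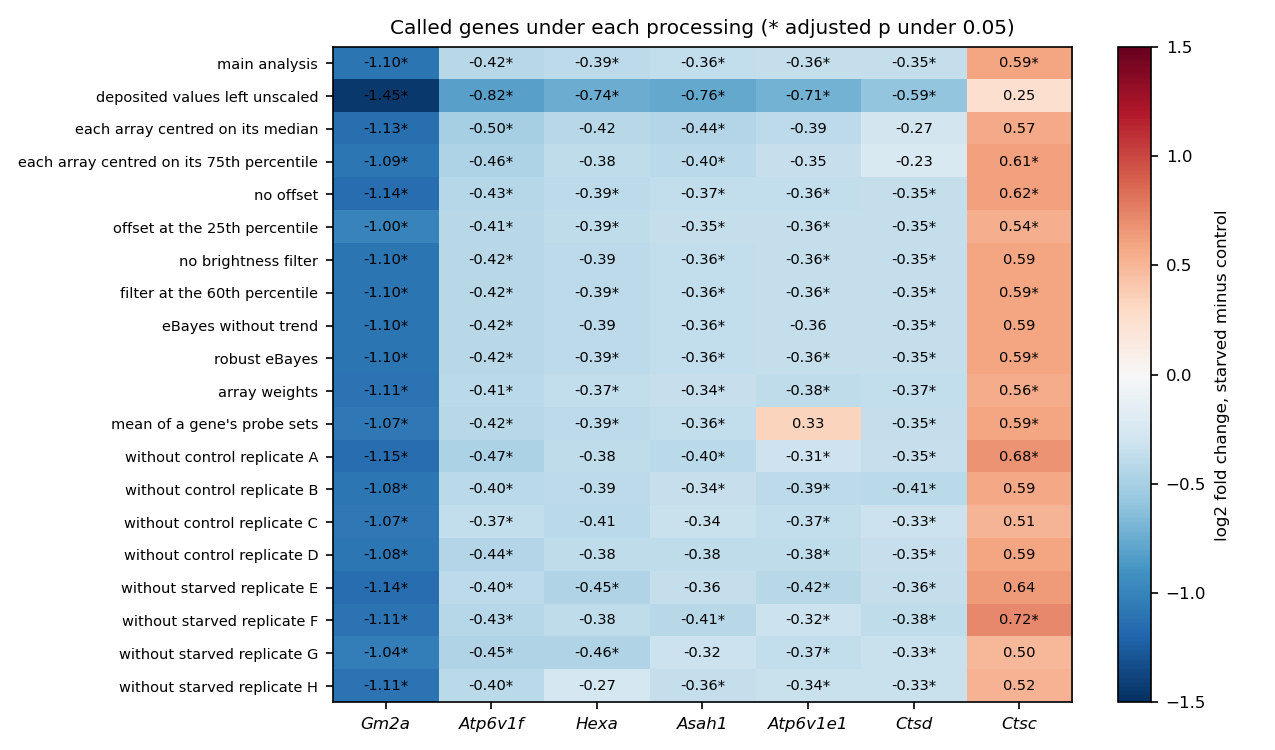
Log2 fold change of the 7 called members under the processing described and 19 alternatives, with an asterisk where the adjusted p was below 0.05 and colour for size and direction. Gm2a and Atp6v1f carry an asterisk in every row, and Atp6v1e1 turns to 0.33 with the mean of its probe sets.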

How the data were processed

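The 8 columns of the deposited table hold 1 intensity per probe set and array on a linear scale, not scaled between arrays. How the authors computed them, and with what software, is not given here. An offset of 10.9 (the 10th percentile) was added, log2 was taken and arrays were quantile normalized. After removal of 64 control probe sets, the 13575 whose mean exceeded the 40th percentile were tested with limma 3.58.1 in R 4.3.3 (lmFit, eBayes with an intensity trend). Of 22626 probe sets 20380 had 1 symbol in the 2016 platform annotation, 691 several and 1555 none. Because of the offset, fold changes refer to log2(value + offset), which understates the change of dim genes. Intervals are 95% limma intervals, whose width depends on having 4 arrays per group.

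The members and gene lists were chosen with earlier results of these data known. Every member is accounted for by name. Array values are given for called members, for the largest differences in classes with fewer than 2 calls, and for some members chosen after their values were seen (Ctsb, Lamp1, Gaa, Atp6v1c2, Igf2r, Npc2 and second probe sets). Promoter windows are RefSeq's (GRCm38.p6). Figures used matplotlib 3.10.9 in Python 3.11.15.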

Additional observations from a re-analysis of the deposited data

Results flagged for a closer look

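In 8 of 112 groups of 4 values (47 members and 9 medians in each condition), 1 array lay far from the other 3, by a gap larger than Dixon's 95% limit. Chance gives about 1 in 20 such groups. In control D, Lamp2 read 9.80 against 10.20 to 10.27 in the other controls, Atp6v1a 9.71 against 9.91 to 9.95, and Acp2 8.46 against 8.22 to 8.25. In control B, Atp6v1c1 read 10.82 against 10.57 to 10.60. In starved F, Atp6ap2 read 10.24 against 10.94 to 11.06 in the other starved arrays, and Gusb 8.40 against 8.23 to 8.26. Ids read 6.73 in starved G against 7.02 to 7.06, and Ctsl 12.39 in starved H against 12.08 to 12.13.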

How the results depend on the processing

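The number of members called higher (1) became 0 in unscaled values, with median centring, without a brightness filter and without an intensity trend. At an unadjusted p under 0.05 in limma's test, 0 members were higher in unscaled values and 2 under each of the other 3. The number called lower (6) became 10 in unscaled values and 3 with either centring. Leaving out 1 array at a time gave 0 to 1 higher and 4 to 6 lower. Over all tested genes 6.75% were called without a brightness filter and 9.03% without an intensity trend. Without 1 array 8.24% to 10.7% of all tested genes were called, against 11.2% with all 8 arrays. The median of all members moved from -0.034 to -0.42 in unscaled values and -0.097 with median centring, and ran from -0.060 to -0.0064 without 1 array. In unscaled values the median of all tested genes was itself -0.34. Relative to the median of all tested genes, the member median was -0.076 in unscaled values and with either centring, and -0.049 after quantile normalization. Unscaled class medians were -0.41 for cathepsins, -0.36 for glycosidases, -0.54 for lipid hydrolases, -0.22 for membrane proteins, and -0.42 for the pump, with -0.42 for V1, -0.43 for V0 and -0.42 for accessory genes. The cathepsin median was -0.089 with median centring, 0.057 without a filter, 0.0015 with the filter at the 60th percentile and 0.0098 with array weights, and ran from -0.066 to 0.040 without 1 array. Glycosidases were at -0.19 with the filter at the 60th percentile and membrane proteins at 0.097 with median centring. The V1 median was -0.11 with median centring and 0.018 when a gene's probe sets were averaged. The direction of 25 of the 47 members turned in at least 1 alternative, and of 19 in unscaled values, Ctsb, Ctsl, Gaa, M6pr, Psap and Atp6v1a among them. Of the members given array by array under the naming rule it turned for Atp6v1e1 when its probe sets were averaged (0.33), for Lamp2 and Scarb2 in unscaled values (-0.13 and -0.19), and for Atp6ap1 without control A or starved E (0.010 and 0.055, with a lowest value of -0.18 over the single arrays left out). Atp6ap2 turned to -0.36 unscaled, -0.045 and -0.0053 with median and 75th percentile centring, -0.040 with array weights and -0.15 with its probe sets averaged, and ran from -0.15 to 0.19 without 1 array. The cause of these changes was not tested. Offsets of 0 or the 25th percentile and robust eBayes kept all 7 calls. No paired analysis was possible because the groups share no replicate letters.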
